A study of Mus musculus with 8 samples.

Results

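The genes described here are the relatives of Abhd15 that this liver array could name: the ABHD proteins and the carboxylesterases. They were found by symbol, as every transcript cluster with a single gene symbol starting with Abhd, or with Ces and a digit, leaving out Abhd15, Abhd5 and Abhd6. A transcript cluster is the array's unit for a gene, with 1 log2 expression value per array. The rule found 38 clusters for 37 of the 22180 genes with a single symbol, 18 of the ABHD kind and 19 carboxylesterases. Abhd10 had several clusters and was represented by the one with the highest mean. Another 2 clusters, naming Preb with Abhd1 and Gm2011 with Abhd18, were left out because they name several genes, and Ces2c was not analysed here. The ABHD set includes the long non-coding RNA Abhd11os, which shares only its name and its locus with a hydrolase, and the carboxylesterase set includes the transcribed pseudogene Ces2d-ps.

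The livers were from 8 male C57BL/6J mice, of which 3 were wild type (WT) and 5 lacked Abhd15 (KO). All were on normal chow and 14 weeks old per the design text (the labels state a diet period of at most 14 weeks instead), and were fasted overnight and given food again for 1 hour before the liver was taken. The labels give neither the construction of the knockout nor litters, cages or harvest order, and they describe each array as coming from a mouse without listing the animals, and the p-values given here cover the spread among these arrays alone. The comparison asks how the transcripts of these hydrolases differ in liver that lacks Abhd15. Abhd15 itself read 5.647, 5.812 and 5.460 on the WT arrays and 5.137, 5.042, 5.206, 5.175 and 5.035 on the KO arrays in its brighter cluster, without overlap. In that cluster KO minus WT was -0.52 on the log2 scale (adjusted p = 0.795 in limma, the linear model described below). Abhd15 itself therefore did not pass the threshold applied to the members. Absence of overlap held for 4.43% of all clusters. The KO arrays still read above 5, the level under which the mean of a cluster is called dim below. In the other Abhd15 cluster, which had a mean of 3.42, the groups overlapped. Of 12 measured hepatocyte markers, 11 had a mean of at least 5, with Alb, the albumin gene, between 12.9 and 13.1 on the 8 arrays. Ass1, the other marker, had a mean of 4.14.

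Both families share the alpha/beta hydrolase fold, in which a serine, a histidine and an acidic residue form the catalytic site of most members. Carboxylesterases split ester bonds in drugs, cholesteryl esters and acylglycerols, and hepatocytes make them in large amounts, mostly for the lumen of the endoplasmic reticulum. ABHD proteins are more varied and act on phospholipids, lysophospholipids, monoacylglycerols or fatty acids bound to proteins, in many tissues. Abhd15 belongs to the second family and is best known from fat cells.

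The families also differed in how their genes start. The promoter table of RefSeq (GRCm38.p6), which holds 250 bases before to 50 bases after a gene's start, matched 30 of the 37 genes, 16 ABHD genes with 19 promoters and 14 carboxylesterase genes with 15. Abhd12, Abhd3, Ces1d, Ces1f, Ces2b, Ces2d-ps and Ces3a were not matched. The 15 carboxylesterase promoters held 0 to 5 CpG sites each, with a median of 2 and a median GC content of 47.0%. The 19 ABHD promoters held 2 to 52, with a median of 19 and a median GC content of 59.0%. Over all 32851 promoters of this length the median was 7 CpG sites, and 43.6% had 5 or fewer, as did 2 of the 19 ABHD promoters. The 5 promoters printed here show this contrast, with each CpG site in capitals and the rest in lower case, 5′ to 3′ along the gene's strand.
Ces1b (chr8:93079891-93080190, minus strand): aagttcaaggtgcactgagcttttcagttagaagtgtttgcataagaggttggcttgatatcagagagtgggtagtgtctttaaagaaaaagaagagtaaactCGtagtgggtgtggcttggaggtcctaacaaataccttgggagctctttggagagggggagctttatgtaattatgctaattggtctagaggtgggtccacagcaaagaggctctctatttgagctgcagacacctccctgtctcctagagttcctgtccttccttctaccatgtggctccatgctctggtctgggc
Ces1c (chr8:93131234-93131533, minus strand): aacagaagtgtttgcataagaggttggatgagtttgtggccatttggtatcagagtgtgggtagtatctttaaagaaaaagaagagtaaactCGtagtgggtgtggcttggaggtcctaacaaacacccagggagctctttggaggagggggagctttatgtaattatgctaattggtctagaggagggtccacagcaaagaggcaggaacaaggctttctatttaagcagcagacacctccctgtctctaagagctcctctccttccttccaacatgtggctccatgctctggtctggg
Ces1e (chr8:93229570-93229869, minus strand): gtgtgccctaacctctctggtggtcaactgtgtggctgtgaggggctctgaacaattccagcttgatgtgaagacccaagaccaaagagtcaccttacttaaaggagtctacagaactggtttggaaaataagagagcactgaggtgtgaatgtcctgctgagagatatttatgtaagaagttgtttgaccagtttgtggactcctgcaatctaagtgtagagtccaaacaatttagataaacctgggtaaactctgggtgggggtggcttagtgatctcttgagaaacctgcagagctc
Abhd4 (chr14:54253879-54254178, plus strand): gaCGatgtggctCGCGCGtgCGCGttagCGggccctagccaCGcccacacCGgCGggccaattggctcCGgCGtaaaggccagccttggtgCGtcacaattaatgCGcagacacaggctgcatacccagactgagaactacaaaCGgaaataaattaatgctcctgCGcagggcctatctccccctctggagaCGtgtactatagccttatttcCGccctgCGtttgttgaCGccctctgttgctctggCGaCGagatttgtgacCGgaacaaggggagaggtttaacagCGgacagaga
Abhd17c (chr7:84151844-84152143, minus strand): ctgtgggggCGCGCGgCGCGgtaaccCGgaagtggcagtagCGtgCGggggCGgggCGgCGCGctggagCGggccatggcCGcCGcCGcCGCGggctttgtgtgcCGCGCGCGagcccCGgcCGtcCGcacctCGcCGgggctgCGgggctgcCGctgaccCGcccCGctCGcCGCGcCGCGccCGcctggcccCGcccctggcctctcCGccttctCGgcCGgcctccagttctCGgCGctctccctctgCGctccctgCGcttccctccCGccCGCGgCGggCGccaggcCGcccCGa

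Ces1e, at 0 CpG sites, had the fewest and Abhd17c, at 52, the most. Ces1b and Ces1c are neighbours in the same direction on chromosome 8. The promoters printed for them held 1 CpG site each and were 81.6% identical in a global alignment, and the other listed promoter of Ces1b held 2 CpG sites. With the first listed promoter of each gene, the median identity over the 91 pairs of carboxylesterase promoters was 47.8%, and the next highest was 57.1%, between Ces2a and Ces2f. The 120 ABHD pairs had a median of 47.4% and a highest value of 54.1%. GGGCGG, the GC box, lay on either strand in 14 of 19 ABHD promoters and 1 of 15 carboxylesterase promoters, against 35.7% of all promoters. TATAAA lay on either strand in 1 of 19 and 3 of 15, against 13.6% of all. AGGTCA, a half-site of nuclear receptors, lay in 5 of 19 and 3 of 15, against 16.3% of all. TGTTTAC, the core of FOXA sites, lay in 1 of 19 and 0 of 15, against 3.65% of all, and GTTAAT, a half-site of HNF1, in 0 of 19 and 2 of 15, against 7.10%. None of the 5 motifs contains another, overlaps between their matches were not examined, and a match is a description of letters and no evidence of binding. The 2 ABHD promoters with 5 or fewer CpG sites belonged to Abhd12b and Abhd16b. Both were read at low values, with means of 2.74 and 2.48 over the 8 arrays. Abhd8, Abhd10, Abhd11os and Abhd14a were also read under 5 and had 18, 27, 7 and 12 CpG sites. The carboxylesterase promoters, all with 5 or fewer sites, belonged to genes read on both sides of 5. Among them were Ces1c, with a mean of 12.03, and Ces1h, with 1.94.

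**Figure D1:**
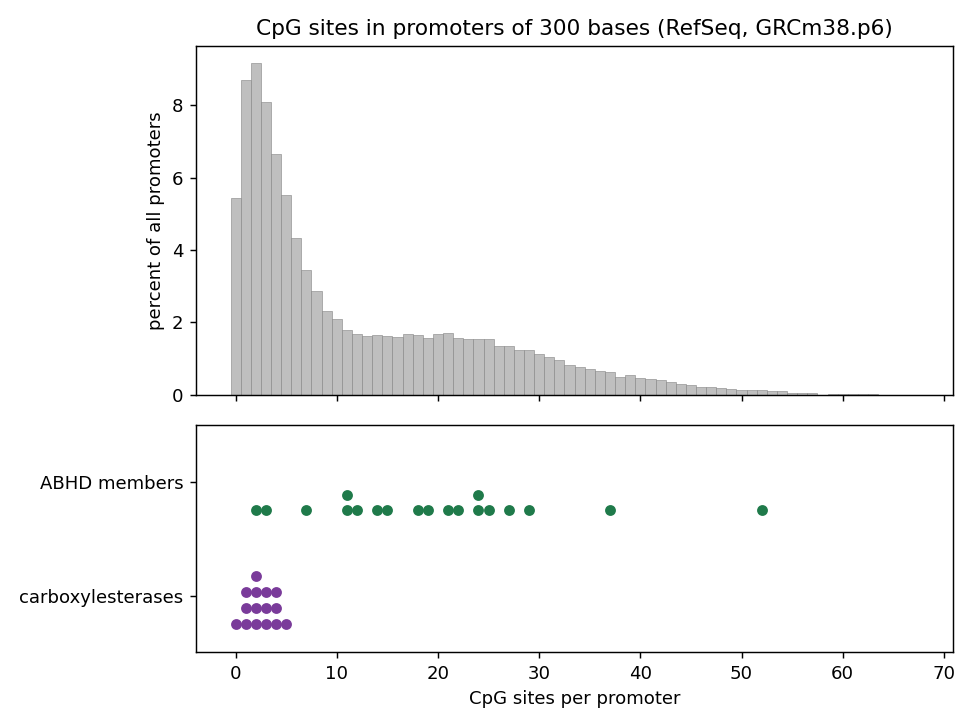
The upper panel gives the percent of all 32851 RefSeq promoters of 300 bases with each number of CpG sites (x axis), and in the lower panel each dot is 1 promoter of a carboxylesterase gene or of an ABHD gene. The carboxylesterase dots lie between 0 and 5 sites and the ABHD dots between 2 and 52.

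Array medians lay between 2.99 and 3.05. KO arrays 1 and 2 stood apart on the first principal component of all clusters, with scores of 55.2 and 50.8 where the next array had 0.22. KO array 4 stood apart on the second, with -70.0 against -10.6. Differences are therefore also given without KO arrays 1 and 2. Array weights from limma were lowest for KO arrays 4 and 5, at 0.76 and 0.81, beside 0.98 and 0.96 for KO arrays 1 and 2. The omission of each single array is described in the closing section on processing. The mean log2 value of 12 measured hepatocyte markers was 11.1 on each WT array and between 10.95 and 11.23 on the KO arrays. In bulk tissue, fewer cells of a type and less RNA per cell cannot be told apart. Levels of different clusters depend on their probes and are not compared with each other, and clusters with a mean under 5 are called dim, because a signal above background is not shown for them.

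No ABHD or carboxylesterase transcript passed the threshold between KO and WT liver. With limma, a linear model fitted over all 23521 single-symbol clusters, 0 of the 37 members had an adjusted p under 0.05, against a background of 0% of all clusters, and the members' adjusted p ran from 0.82 to 0.996. Of the members, 18 read higher and 19 lower in KO, and the median log2 difference was -0.01, beside -0.0018 over all clusters, 50.4% of which were lower. Among the 23 members with a mean of at least 5, 11 were lower, beside 59.9% of all 7699 such clusters. The median size of the difference was 0.14 among members and 0.13 among all clusters. At an unadjusted p under 0.05 there was 1 member, Ces1f, which was lower, beside 6.08% of all clusters in either direction and 3.32% in that direction. In 0 members did WT and KO arrays fail to overlap, beside 4.43% of all clusters.

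The intervals give how large a difference these arrays leave possible. The 95% interval of limma lay within a 2-fold change in either direction for 35 of 37 members, or 94.6%, the same share as the 94.6% of all clusters. It lay within a 1.5-fold change for 20 members, 11 ABHD genes and 9 carboxylesterases, or 54.1% beside 58.6% of all clusters. The 2 members whose intervals passed a 2-fold change were Ces1f and Ces4a, both on the lower side. Among the 23 members with a mean of at least 5, 16 had an interval within 1.5-fold, or 69.6% beside 75.2% of all such clusters. Among the 14 dim members 4 did, or 28.6% beside 50.6% of all dim clusters. Without KO arrays 1 and 2, 22 of 37 members were lower, beside 51.3% of all clusters, and the median difference was -0.04, beside -0.0067. In that fit 2 members had an unadjusted p under 0.05 (Ces1e and Ces1f), beside 5.98% of all clusters, and 0 an adjusted p under 0.05, beside 0% of all clusters.

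**Figure D2:**
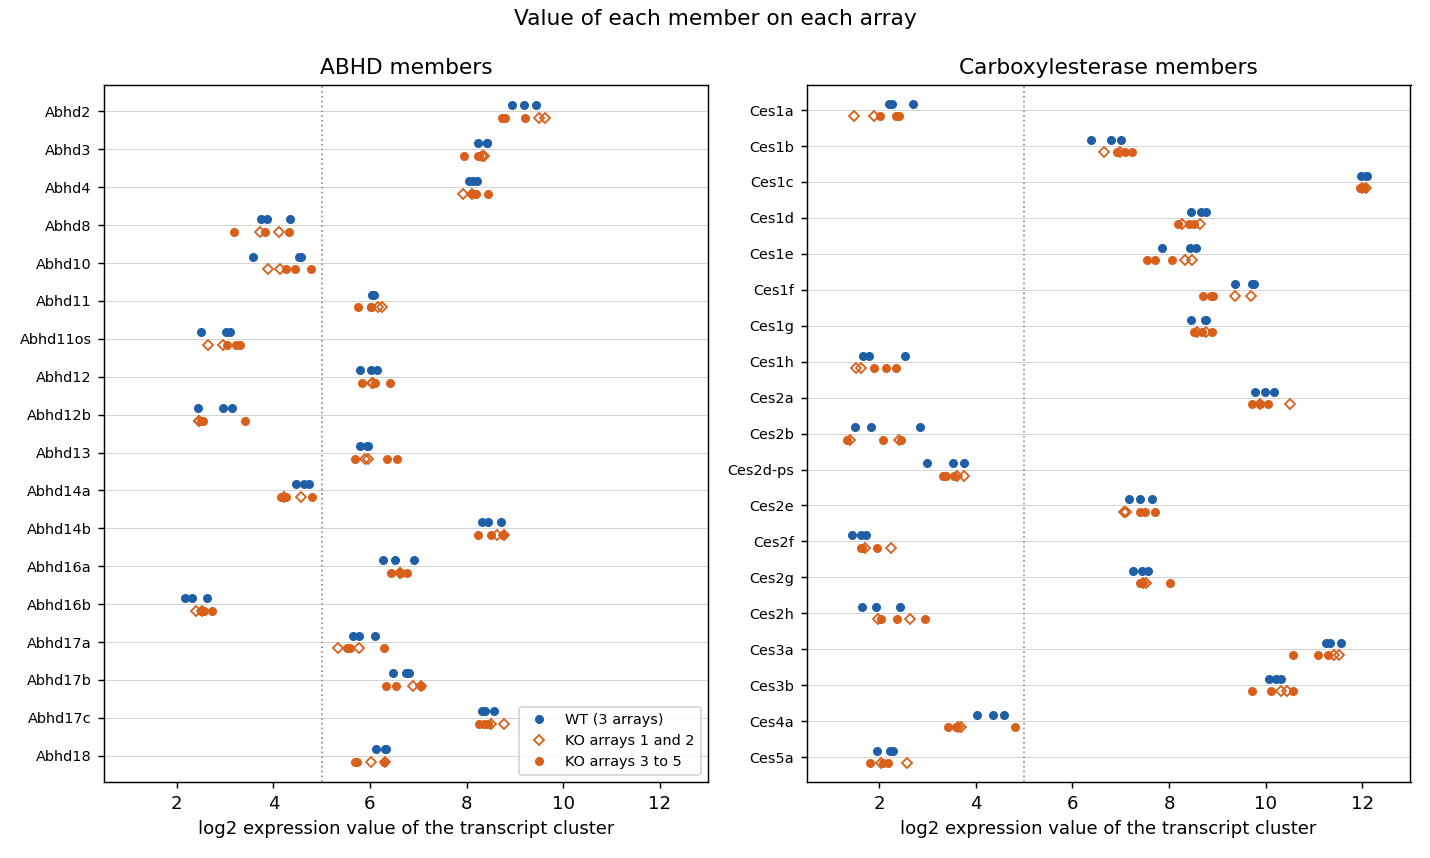
Each point is the log2 expression value (x axis) of a member on 1 array, with the 3 WT arrays above and the 5 KO arrays below each gene's line, KO arrays 1 and 2 as open diamonds. The dotted line marks a value of 5. The WT and KO points of each of the 37 genes overlap in range.

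Carboxylesterases of the first subfamily lie in a row on chromosome 8, and 6 of the 8 measured had a mean of at least 5. Ces1f is a hepatic lipase of this row that is also listed as TGH-2, a second triacylglycerol hydrolase. It read 9.363, 9.715 and 9.753 on the WT arrays and 9.364, 9.689, 8.707, 8.904 and 8.864 on the KO arrays. KO arrays 1 and 2 lay within the WT range, from 9.36 to 9.75, while KO arrays 3, 4 and 5 lay below all WT arrays. The WT mean of Ces1f was 9.61 ± 0.215 (SD, n = 3) and its KO mean 9.11 ± 0.408 (SD, n = 5). KO minus WT was -0.50 on the log2 scale (SE 0.225, 95% interval of the KO to WT ratio 0.499 to 0.996), or 1.42-fold. Its unadjusted p was 0.0476, its adjusted p with limma was 0.82 and its two-sided exact permutation p was 0.107. The difference was -0.45 without KO array 4 and -0.44 without KO array 5, with unadjusted limma p of 0.0922 and 0.0942. Without KO arrays 1 and 2 the difference was -0.79 with an unadjusted p of 0.00113 and an adjusted p of 0.763. WT and KO arrays then did not overlap, which held for 11.6% of all clusters. Whether the property that sets KO arrays 1 and 2 apart plays a part was not tested, and the pattern was noticed after the values were seen.

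The neighbour on one side of Ces1f is Ces1e, or egasyn, which holds beta-glucuronidase in the endoplasmic reticulum. Ces1e read 7.854, 8.569 and 8.435 on the WT arrays and 8.341, 8.472, 7.545, 8.052 and 7.716 on the KO arrays. KO arrays 3 and 5 were the lowest of all 8, but WT array 1 lay below KO array 4. The difference was -0.26 (SE 0.242, adjusted p = 0.902), and without KO arrays 1 and 2 it was -0.52 (unadjusted p = 0.0491, adjusted p = 0.818). Next in the row is Ces1d, the triacylglycerol hydrolase that moves stored fat toward lipoprotein secretion. Ces1d read 8.445, 8.652 and 8.773 in WT and 8.276, 8.646, 8.192, 8.420 and 8.519 in KO. KO array 3 was the lowest for Ces1d, as for Ces1e and Ces1f, and KO array 1 was next, so the order was not that of Ces1f. The difference of Ces1d was -0.21 (95% interval -0.54 to 0.11).

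Ces1g, the neighbour on the other side of Ces1f, hydrolyses lipid and drug esters, and its loss is known to raise blood lipids in mice. It read 8.456, 8.764 and 8.740 in WT and 8.775, 8.578, 8.519, 8.677 and 8.882 in KO. KO array 5, which was low for Ces1f, was the highest of all arrays for Ces1g, and the difference was 0.033 (95% interval -0.28 to 0.34). Ces1c is the carboxylesterase that mouse liver secretes into plasma. It read 12.088, 12.093 and 11.976 in WT and 12.000, 12.077, 11.978, 12.044 and 11.959 in KO. Its values spanned the narrowest range of any member, and the difference of -0.041 had the narrowest interval (-0.29 to 0.21), although values this near the top of the array's range, which ended at 13.27, may be compressed. Ces1b, the gene beside Ces1c with the similar promoter, read 6.380, 6.801 and 7.007 in WT and 6.658, 6.982, 6.933, 7.098 and 7.242 in KO. It had the largest positive difference among members with a mean of at least 5, 0.25 (SE 0.179, adjusted p = 0.881), with KO arrays 4 and 5 above every WT array and WT array 1 below every KO array.

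**Figure D3:**
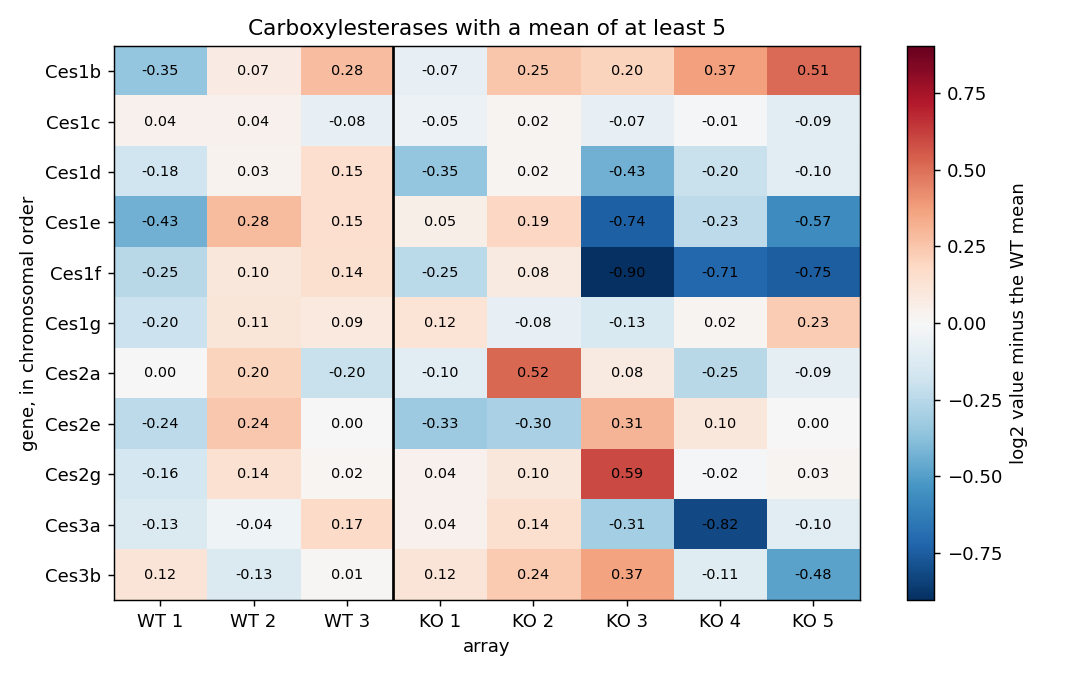
Each cell gives the log2 value of a carboxylesterase on 1 array minus the mean of that gene's 3 WT arrays, for the 11 genes with a mean of at least 5, in their order on chromosome 8 in the RefSeq table. Blue is below and red above the WT mean. The lowest cells of Ces1e and Ces1f fall on KO arrays 3 and 5 and 3, 4 and 5, while Ces1c stays pale on every array.

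The second subfamily holds drug and acylglycerol hydrolases, of which 7 were measured and 3 had a mean of at least 5. Ces2a read 9.981, 10.176 and 9.778 in WT and 9.877, 10.496, 10.056, 9.728 and 9.891 in KO. KO array 2 was the highest of all arrays and KO array 4 the lowest, and the difference was 0.031 (95% interval -0.38 to 0.44). Ces2e read 7.164, 7.647 and 7.400 in WT and 7.078, 7.108, 7.713, 7.505 and 7.406 in KO. Here KO arrays 1 and 2 were the lowest and KO array 3 the highest, with a difference of -0.042 (95% interval -0.44 to 0.36). Ces2g had a difference of 0.15 and one of 0.039 without KO array 3. The dim Ces2h and Ces2f had the smallest p of the subfamily, with differences of 0.39 (unadjusted p = 0.147) and 0.25 (unadjusted p = 0.175). Ces2h read 1.930, 2.438 and 1.643 in WT and 2.645, 1.978, 2.372, 2.938 and 2.038 in KO. Ces2f read 1.613, 1.427 and 1.722 in WT and 1.711, 2.242, 1.642, 1.954 and 1.620 in KO. These values lie below the array medians, so neither gene is shown to be expressed. The dim Ces2b and Ces2d-ps had differences of -0.13 and 0.096.

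Ces3a and Ces3b, the liver carboxylesterases of the third subfamily, lie side by side. Ces3a read 11.252, 11.343 and 11.559 in WT and 11.426, 11.529, 11.075, 10.568 and 11.283 in KO. KO array 4 was the lowest, KO array 3 was next, and KO arrays 1 and 2 lay within the WT range. Its difference was -0.21 (95% interval -0.67 to 0.26), and -0.41 without KO arrays 1 and 2. Ces3b read 10.323, 10.079 and 10.222 in WT and 10.323, 10.446, 10.573, 10.102 and 9.726 in KO. In Ces3b it was KO array 5 that was lowest and KO array 3 that was highest, so the pair did not follow each other over the KO arrays. The difference of Ces3b was 0.026 (95% interval -0.40 to 0.45). Ces4a, a little-studied relative, comes last in the chromosomal order of the carboxylesterases. It read 4.016, 4.359 and 4.584 in WT and 3.695, 3.625, 4.811, 3.417 and 3.588 in KO. In Ces4a, 4 of the 5 KO arrays lay below all WT arrays and KO array 3 lay above them. Its difference of -0.49 (SE 0.29, adjusted p = 0.858) was -0.74 without KO array 3, where WT and KO did not overlap. The share of all clusters without overlap in that set of arrays was not computed. Ces4a, with a mean of 4.01, is dim, and so are Ces1a, Ces1h and Ces5a, with means of 2.16, 1.94 and 2.14. Ces1a read 2.194, 2.689 and 2.266 in WT and 1.484, 1.900, 2.401, 2.340 and 2.008 in KO, a difference of -0.36 (unadjusted p = 0.131), and Ces1h and Ces5a had differences of -0.091 and -0.019.

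Several ABHD enzymes act on phospholipids and monoacylglycerols. Abhd2, a monoacylglycerol lipase known from sperm, read 9.436, 8.943 and 9.181 in WT and 9.622, 9.500, 9.207, 8.790 and 8.742 in KO. KO arrays 1 and 2 were the highest of all 8 and KO arrays 4 and 5 the lowest, so a difference of -0.014 (95% interval -0.51 to 0.49) came from KO arrays on both sides of WT, and it was -0.27 without KO arrays 1 and 2. Abhd3, which cleaves phosphatidylcholines with medium-length chains, read 8.234, 8.428 and 8.421 in WT and 8.325, 8.352, 8.250, 7.947 and 8.241 in KO. All KO arrays were lower than the 2 highest WT arrays, and the difference was -0.14 (95% interval -0.44 to 0.17).

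Abhd4, which removes acyl chains from N-acyl phosphatidylethanolamines on the way to anandamide, read 8.144, 8.215 and 8.046 in WT and 8.110, 7.933, 8.202, 8.123 and 8.445 in KO. KO array 5 was highest and KO array 2 lowest, and the difference was 0.028 (95% interval -0.29 to 0.34). Abhd16a makes lysophosphatidylserine and Abhd12 degrades it. Abhd16a read 6.513, 6.270 and 6.903 in WT and 6.620, 6.625, 6.765, 6.639 and 6.437 in KO, with the WT arrays at both ends of the range. Abhd12 read 5.789, 6.148 and 6.030 in WT and 6.060, 6.044, 6.408, 6.107 and 5.839 in KO, with KO array 3 the highest and WT array 1 the lowest. The 2 enzymes had differences of 0.055 (95% interval -0.30 to 0.41) and 0.10 (95% interval -0.24 to 0.45).

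Mitochondrial ABHD proteins are Abhd10, which takes fatty acids off protein cysteines, and Abhd11, which helps to keep the oxoglutarate dehydrogenase complex lipoylated. Abhd11 read 6.090, 6.065 and 6.053 in WT and 6.260, 6.157, 6.032, 5.745 and 6.026 in KO. The WT arrays lay close together and the KO arrays on both sides of them, with a difference of -0.025 (95% interval -0.34 to 0.29). Abhd10 was dim and read 4.523, 4.569 and 3.583 in WT and 3.891, 4.143, 4.270, 4.453 and 4.783 in KO. WT array 3 was the lowest of all, and the difference of 0.083 was -0.24 without it. Abhd11os, which lies beside Abhd11 and is dim, had a difference of 0.16. Abhd14b, which removes acetyl groups from lysines, read 8.313, 8.719 and 8.448 in WT and 8.769, 8.629, 8.752, 8.498 and 8.231 in KO. The ranges of Abhd14b nearly coincided, with a difference of 0.082 (95% interval -0.28 to 0.44). Abhd14a, its neighbour on chromosome 9, was dim and had a difference of -0.21.

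The ABHD17 proteins remove palmitate from membrane proteins such as Ras. Abhd17a read 5.640, 5.768 and 6.108 in WT and 5.340, 5.767, 6.294, 5.587 and 5.517 in KO, with KO arrays both highest and lowest and a difference of -0.14 (95% interval -0.61 to 0.33). Abhd17b and Abhd17c had differences of 0.095 (95% interval -0.33 to 0.52) and 0.04 (95% interval -0.28 to 0.37). Abhd18, a member of unsettled function, had the smallest p of the ABHD set (unadjusted p = 0.184) and read 6.129, 6.307 and 6.336 in WT and 6.306, 6.015, 6.291, 5.688 and 5.728 in KO. KO arrays 4 and 5 were lowest, KO arrays 1 and 3 lay within the WT range, and the difference was -0.25 (SE 0.177, adjusted p = 0.878). Abhd13 had the largest positive difference of the ABHD set, 0.19 (95% interval -0.24 to 0.63), and the dim Abhd8, Abhd12b and Abhd16b had -0.15, -0.17 and 0.17. Of the relatives left out by the rule, Abhd5, the co-activator of adipose triglyceride lipase, had a difference of -0.14 (SE 0.128). Abhd6, a monoacylglycerol lipase, had one of -0.50 (SE 0.242, adjusted p = 0.838), which was -0.21 without KO arrays 1 and 2.

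**Figure D4:**
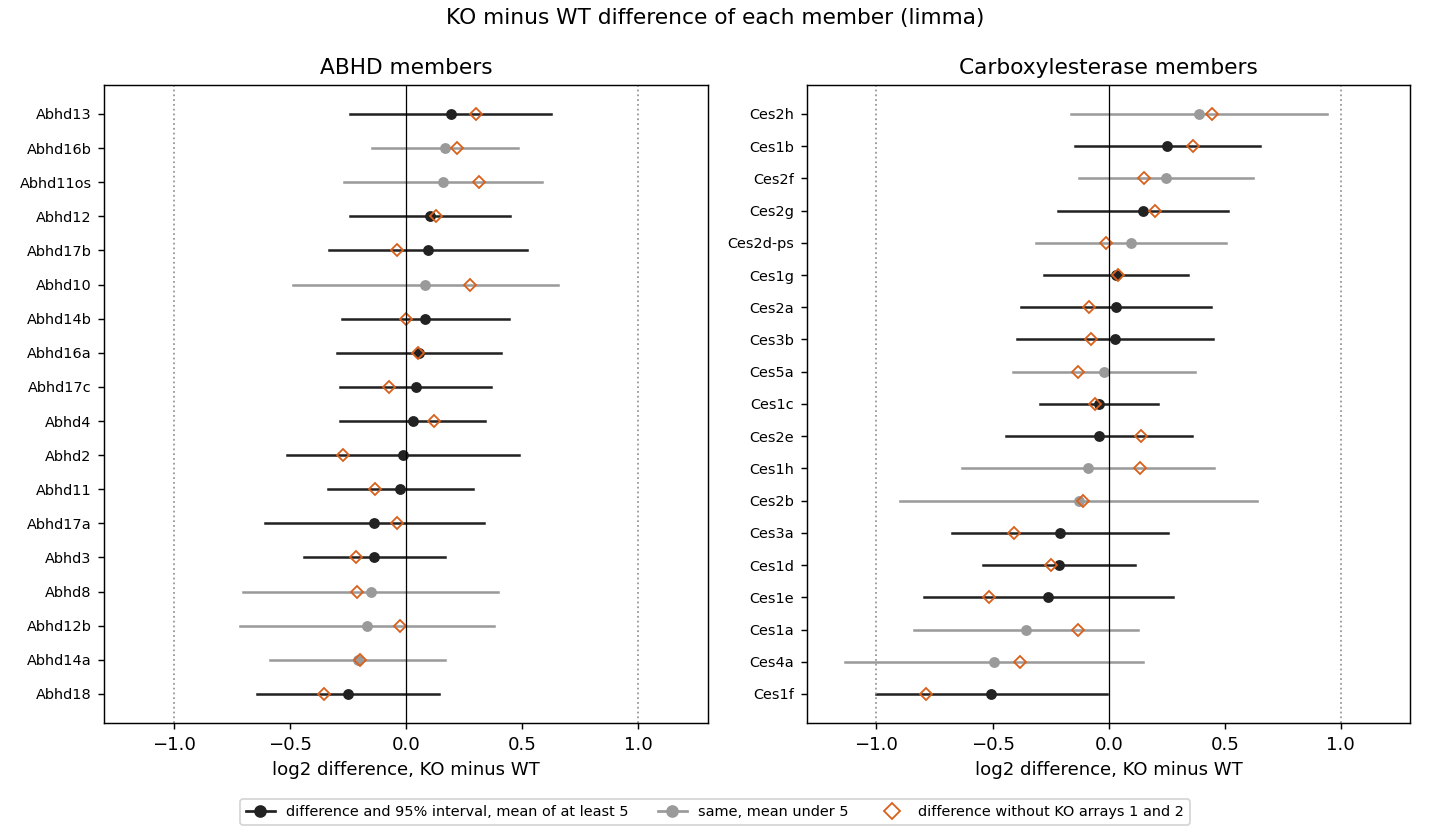
Circles give the KO minus WT difference of each member on the log2 scale (x axis) and bars its 95% interval from limma, in black for members with a mean of at least 5 and in grey for dim ones. Open diamonds give the difference without KO arrays 1 and 2, and dotted lines mark a 2-fold change. The interval of Ces1f alone leaves out 0, and those of Ces1f and Ces4a pass the lower dotted line.

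Single arrays stood out in some members without dividing the groups. Among the 23 members with a mean of at least 5, KO array 4 was the lowest array in 7, KO array 5 in 5 and WT array 1 in 4. The median over these members of the value minus the WT mean was -0.20 on KO array 4 and -0.12 on KO array 5, beside -0.13, 0.07 and 0.04 on the WT arrays and 0.04 to 0.08 on the other KO arrays. In the 11 carboxylesterases the median on the KO arrays ran from -0.11 to 0.10, and on the WT arrays from -0.18 to 0.10. In the 12 ABHD genes it was -0.23 on KO array 4, -0.15 on KO array 5 and 0.14 on KO array 3, outside the WT range of -0.074 to 0.0628. On KO arrays 1 and 2 it was 0.0645 and 0.0633, barely above that range. The WT medians are held near 0 because the mean of the same 3 arrays was subtracted. The same counts and medians over all clusters were not computed, so these values are not read as a trait of the members.

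Other genes of the same chemistry were read from lists, and none of them passed in limma either. Of 50 measured genes for proteins with the alpha/beta hydrolase fold outside both families, 21 were higher and 29 lower, with a median of -0.05. An unadjusted p under 0.05 was found for 7, all lower, beside 3.32% of all clusters in that direction. Without KO arrays 1 and 2 there were 4, beside 5.98% of all clusters in either direction. The smallest p belonged to the acyl-CoA thioesterases Acot3 (-1.50, SE 0.259) and Acot1 (-1.20, SE 0.335). Of 23 esterases and lipid hydrolases of other folds, 7 were higher and 16 lower, with a median of -0.05, and 1 had an unadjusted p under 0.05. Without KO arrays 1 and 2, 11 of the 23 were lower and the median was 0.017. The gene with the unadjusted p under 0.05 was Pnpla7, a lysophospholipase, with a difference of 0.65 (SE 0.175), and Pnpla3 came next with 0.40. In endocannabinoid and N-acyl lipid metabolism, 3 of 13 were higher and 10 lower, with a median of -0.07. With KO arrays 1 and 2 left out, 6 of the 13 were lower and the median was 0.024. Mgll, monoacylglycerol lipase, had -0.50 (SE 0.191) and Ptgs2, cyclooxygenase, 0.31. In the palmitoylation cycle, 6 of 19 were higher and 13 lower, with a median of -0.06, and 0 had an unadjusted p under 0.05. Golga7, a partner protein of the palmitoyltransferase Zdhhc9, and Zdhhc17, a palmitoyltransferase, had -0.26 and -0.23. Over all genes 50.8% were lower in KO, with a median of -0.0034. Of these lists, in the order above, 39 of 50, 19 of 23, 5 of 13 and 16 of 19 genes had a mean of at least 5. Over all clusters with such a mean, 59.9% were lower, with a median of -0.040.

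Genes of processes that carboxylesterases take part in, or that control them, were described the same way. In the order given here, 16 of 16, 14 of 14, 18 of 23 and 15 of 17 had a mean of at least 5. Of all clusters with such a mean, 59.9% were lower, with a median of -0.040. Of 16 VLDL assembly genes, 4 were higher and 12 lower, with a median of -0.05, and Fitm1 had -0.49 (SE 0.164) and Dgat2 0.21. Without KO arrays 1 and 2, 9 of the 16 were lower and the median was -0.046. Among xenobiotic receptors and liver factors, 5 of 14 were higher and 9 lower, with a median of -0.14. With KO arrays 1 and 2 left out, 11 of the 14 were lower and the median was -0.068. The forkhead factor Foxa2 had -0.47 (SE 0.171) and the bile acid receptor Nr1h4 -0.32. Of 23 target enzymes and carriers of the receptors CAR and PXR, 15 were higher and 8 lower, with a median of 0.02. Without KO arrays 1 and 2, 10 of the 23 were lower and the median was 0.038. An unadjusted limma p under 0.05 was found for 3 of the 23, all higher. It was found for 1 gene in each of the VLDL, receptor and NRF2 lists, beside 6.08% of all clusters in either direction. Slco1a4, an organic anion carrier, had 0.43 (SE 0.136) and Sult1d1, a sulfotransferase, 0.59 (SE 0.21). Of 17 NRF2 targets, 7 were higher and 10 lower, with a median of -0.12, or -0.033 without KO arrays 1 and 2, and Hmox1, heme oxygenase, had 0.90 (SE 0.347) and Nqo1 -0.44. Without KO arrays 1 and 2 the difference of Hmox1 was 0.41. Of the 12 marker lists, 9 held 0 genes with an unadjusted p under 0.05. The others were stellate cells with Lrat lower, sinusoidal endothelium with Lyve1 higher, and gallbladder and intestine with Tff3 higher and Fabp2 lower. Of their measured markers, 7 of 12, 4 of 12 and 5 of 11 were higher in KO, with medians of 0.034, -0.050 and -0.16. Tff3 had a difference of 2.27, or 1.14 without KO arrays 1 and 2, which read 8.085 and 7.653. The list medians lay between -0.16 and 0.13. The part of any of these in the members' values was not tested.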

How the data were processed

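Total RNA (200 ng per liver, extracted with Trizol per the labels' protocols) was hybridised to 1 Affymetrix Mouse Gene 2.0 ST array per mouse. The authors deposited log2 values for 41345 transcript clusters on 8 arrays, used as they stand. RMA and oligo are named in the submitters' processing notes and Expression Console in the design text. For their versions, settings and genome build, none of the sources used here has an entry, nor for which of them made the values. RMA as usually run normalizes by quantiles and compresses differences of dim clusters. The log2 scale was taken from the range, 0.409 to 13.27. The number of arrays limits the precision.

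Clusters were named from the platform annotation, in which 23521 have 1 symbol. Carboxylesterases are similar in sequence, and no probe sequences were used here, so signal shared between paralogs was not tested.

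KO minus WT was fitted over all 23521 clusters with limma 3.58.1 in R 4.3.3 (lmFit, eBayes, no covariates, two-sided, Benjamini-Hochberg, threshold 0.05), which was tested on simulated data. For single genes the means were also compared by exact permutation over the 56 ways of dividing 8 arrays into 3 and 5, two-sided, whose smallest p is 0.0179. Genes named with every array were a list of 18 measured members and the 8 members with the smallest p, and list genes named were the 2 with the smallest p. Members, lists and markers were chosen with earlier results of these data known. Promoters were aligned with Biopython 1.88. Replicate numbers are shared by the groups but are not described as pairing, so the fit was not blocked. Deviations of same-numbered arrays correlated at -0.05 to 0.02, beside -0.03 to 0.04 for arrays of different numbers. With so few arrays these correlations cannot settle whether the arrays were paired.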

Additional observations from a re-analysis of the deposited data

Results flagged for a closer look

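In 4 of the 37 members, 1 of the 5 KO arrays stood apart from the others by Dixon's test at its 95% critical value, which chance gives in about 1 of 20 genes. The share over all clusters was not computed, so the count does not show that the members differ from other genes. Ces2g read 8.012 on KO array 3, where the other KO arrays lay between 7.399 and 7.522. Ces4a read 4.811 on the same array, where the others lay between 3.417 and 3.695. Abhd3 read 7.947 on KO array 4, where the others lay between 8.241 and 8.352. The dim Abhd12b read 3.418 on KO array 5, where the others lay between 2.46 and 2.545.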

How the results depend on the processing

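No member passed an adjusted p of 0.05 in any alternative that was refitted: trend and robust moderation, all 41345 clusters together, both filters on dim clusters, quantile normalization once more, median centring, array weights, the replicate block (fitted on replicates 1 to 3 of each group, so without KO arrays 4 and 5), and the omission of each array or of KO arrays 1 and 2. The smallest adjusted p of a named member was 0.587. Over all clusters the count was 0, but 3 (Hspa1a, Hspa1b and 1700080G11Rik) with trend and robust moderation, 1 (Hspa1a) among clusters with a mean of at least 5 and 1 (Moxd1) with the replicate block and without KO arrays 4 and 5, which were changed together. The count of members with an unadjusted p under 0.05 was 1, became 0 with all clusters together, above the median level, with quantile normalization once more and with the replicate block, and was 2 without KO arrays 1 and 2. It ran from 0 to 1 when single arrays were left out, with 0 when WT array 3, or KO array 4, or KO array 5 was omitted. The single member was Ces2h without WT array 2 and Ces4a without KO array 3, and otherwise Ces1f. Members without overlap numbered 0, beside 4.43% of all clusters. They numbered 1 (Abhd17b) among the 6 arrays of the replicate block, where the omission of KO arrays 4 and 5 alone sets the overlap. Without KO arrays 1 and 2 they numbered 2 (Abhd11 and Ces1f), beside 11.6% of all clusters. When single arrays were left out they ran from 0 to 4, the 4 (Abhd18, Abhd3, Ces1d and Ces1f) without WT array 1. For the replicate block and the single omissions the share over all clusters was not computed. Those counts are therefore not read as a trait of the members. In 14 of 24 named members no alternative turned the sign, and the difference of Ces1f lay between -0.79 and -0.36. Over the arrays of the replicate block the sign turned for Abhd10 (-0.12), Abhd11 (0.080), Abhd2 (0.26), Abhd4 (-0.053) and Ces1g (-0.029). With equal pairs a block does not move a difference of means, so these turns come from the omission of KO arrays 4 and 5. With quantile normalization once more it turned for Abhd11 (0.026) and Abhd2 (0.00099), with array weights for Abhd2 (0.027), and without KO arrays 1 and 2 for Ces2a (-0.087), Ces2e (0.14) and Ces3b (-0.074). With single arrays left out, the differences ran from -0.24 to 0.25 for Abhd10, -0.079 to 0.049 for Abhd11, -0.0077 to 0.20 for Abhd14b, -0.091 to 0.23 for Abhd16a, -0.14 to 0.11 for Abhd2, -0.043 to 0.085 for Abhd4, -0.066 to 0.088 for Ces1g, -0.090 to 0.13 for Ces2a, -0.16 to 0.08 for Ces2e and -0.059 to 0.15 for Ces3b. Of the list medians, that of the esterases of other folds moved from -0.05 to 0.017 without KO arrays 1 and 2, and that of xenobiotic receptors and liver factors from -0.14 to -0.068 without them and to -0.037 over the arrays of the replicate block. For the other changes the cause was not tested.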

Other observations

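Another cluster for Abhd10, with a mean of 3.40 over all arrays, read 3.170, 3.387 and 3.302 in WT and 3.437, 3.465, 3.815, 3.480 and 3.121 in KO. Its difference of 0.18 (SE 0.16) had the same sign as that of the cluster used for the gene, at a level not shown to be above background.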
